A study of Mus musculus with 13 samples.

Results

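The muscarinic acetylcholine receptors of mouse are encoded by 5 genes, Chrm1, Chrm2, Chrm3, Chrm4 and Chrm5, which were matched by symbol among the 32285 genes of the count tables. All 5 were found, and each is described here in every cell class that known marker genes could define in the hippocampus. The genes were chosen by name with earlier results of these data known, which included their levels by class and the fold changes between old and young mice. Levels by class and all ageing values, those of the partner genes included, are therefore descriptions: numbers of ageing calls are printed beside the share over all genes, and nothing is read from them. Tests are given for the restriction comparisons.

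Muscarinic receptors are G protein-coupled receptors for acetylcholine, which reaches the hippocampus mainly along fibres from the medial septum and diagonal band. Chrm1, Chrm3 and Chrm5 encode receptors that couple to Gq, activate phospholipase C and close the potassium channels of the M current, which makes neurons more excitable. Chrm2 and Chrm4 encode receptors that couple to Gi and Go, inhibit adenylyl cyclase and open inwardly rectifying potassium channels, and the Chrm2 product is known in the hippocampus as a presynaptic receptor of interneurons. Muscarinic signalling is also known to act on oligodendrocyte precursors, where it favours division over differentiation.

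Single-nucleus RNA sequencing had been done on whole frozen hippocampus of 13 female mice of 1 hybrid strain, spelled C3HB6F1 in the sample labels and C3B6F1 in the series description, with 1 library per mouse. No allele or transgene is named. Young mice fed without limit (young ad libitum) were 5 months old (replicates 1, 2 and 3) and old mice fed without limit (old ad libitum) were 24 months old (replicates 1, 2 and 4). A pair of restricted groups was also 24 months old: 3 mice with acute dietary restriction had been restricted from 20 months of age (replicates 1, 2 and 3), and 4 mice with long-term dietary restriction from 5 months of age (replicates 1 to 4). There was no young restricted group, so every effect of diet refers to old mice, and both restriction comparisons use the same 3 old ad libitum mice. The ageing comparison, with values known when the genes were chosen, uses these mice as well. A restriction difference opposite to an ageing difference is therefore not independent of it.

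The libraries held 38546292 to 80538090 unique molecular identifiers (UMIs, 1 per captured RNA molecule) in 3524 to 12368 barcodes, and the median nucleus held 3800 to 11400 UMIs. After filters and removal of 7386 marked doublets, 98041 nuclei remained, of which 85368 fell in 21 classes named from marker genes and 12673 in clusters left unnamed. Classes are called "-like" because the names rest on markers alone. The hippocampal classes were present in every library, with 40464 nuclei of the dentate granule class, 8584 of CA1 and 2131 of CA3 in all. At most 40 barcodes were shared by any pair of libraries, and over all pairs the shared barcodes made up at most 0.471% of the smaller library. The 4 libraries numbered 1, 1 in each group, stood apart from the other 9 across all genes, and values without them are given beside the results that they move most. The old ad libitum mice had more UMIs per nucleus (medians of 6884 to 11375) than the young (3801 to 7123), with overlap.

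Levels are given in counts per 1000000 (CPM): the UMIs of a gene summed over the nuclei of a class in 1 mouse, scaled to the UMIs of that class. A mouse entered with at least 20 nuclei of the class, and 19 classes had at least 2 such mice. Values compare 1 receptor across classes and mice; they do not rank the receptors, because the capture of nuclear RNA can grow with the transcribed span of a gene. The spans differ widely in the GENCODE vM21 annotation of mm10. Chrm3 covers 485.4 kb (chr13:9875486-10360847, minus strand) and Chrm2 140.3 kb (chr6:36388084-36528414, plus strand). Chrm1 covers 19.8 kb (chr19:8663789-8683587, plus strand). Chrm4 (chr2:91927249-91928688, plus strand, 1.44 kb) and Chrm5 (chr2:112479171-112480769, minus strand, 1.6 kb) are annotated as single exons with almost no untranslated sequence, so 3' reads outside those models would not be counted. A non-coding gene on the opposite strand overlaps Chrm2 by 2108 bases (9330158H04Rik, 683 UMIs) and another overlaps Chrm3 by 3253 bases (Gm26861, 1307 UMIs), both small beside the receptors' own UMIs.

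**Figure D1:**
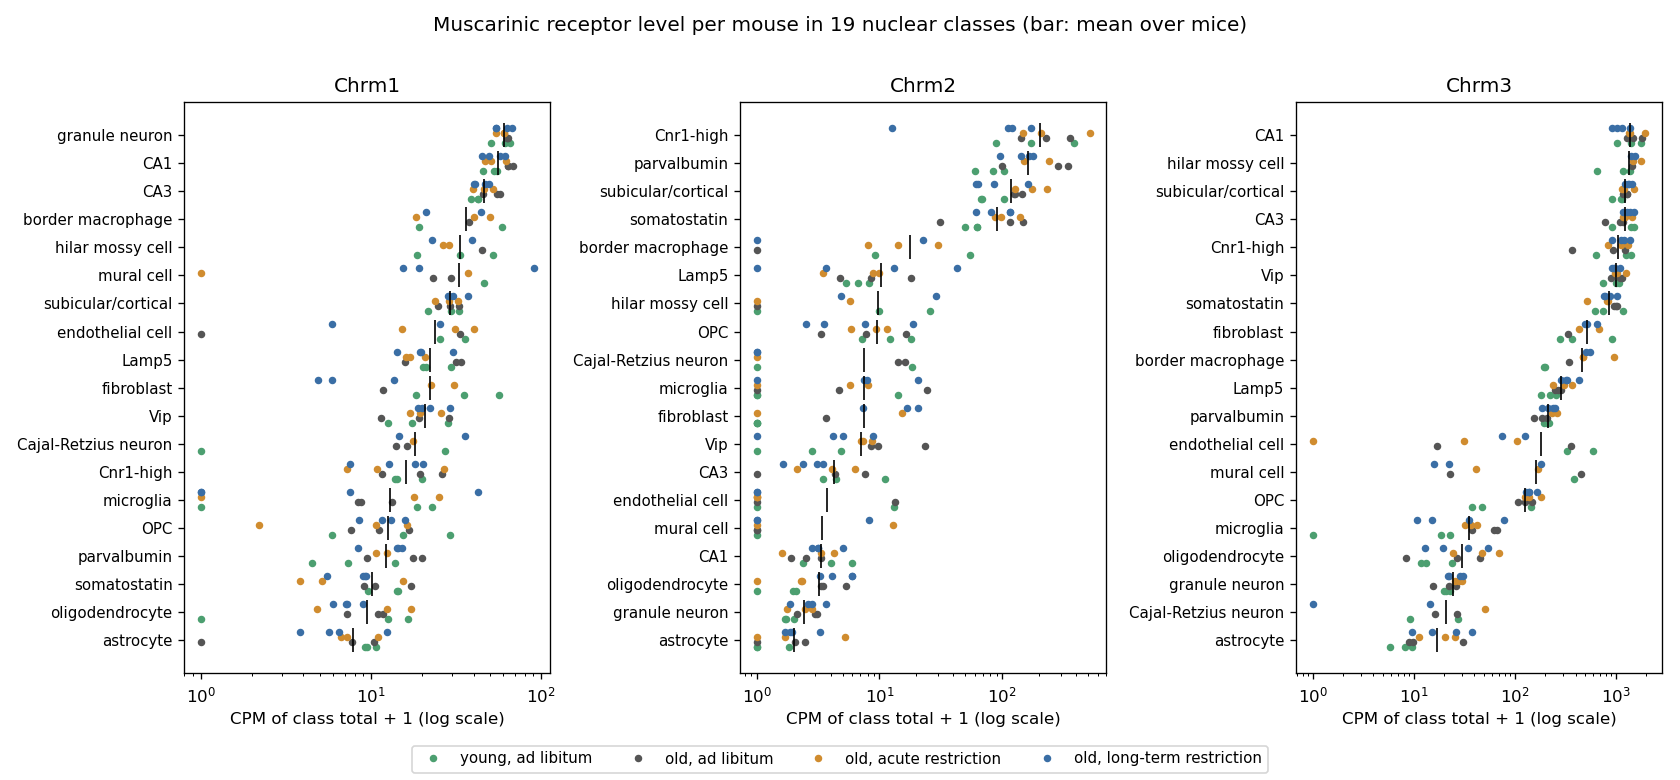
Level of Chrm1, Chrm2 and Chrm3 in 19 nuclear classes; each point is 1 mouse, coloured by group, the vertical bar is the mean over mice, and the horizontal axis is CPM plus 1 on a log scale. Chrm1 was highest in the principal neuron classes (dentate granule, CA1 and CA3), Chrm2 in a few interneuron classes and subicular or cortical excitatory-like nuclei, and Chrm3 in nearly all neuron classes except granule-like and Cajal-Retzius-like nuclei.

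Of the Gq-coupled receptors, Chrm1 was highest in the principal neurons of the hippocampus. Dentate granule-like nuclei held 59.0 ± 5.14 CPM (SD, n = 13), CA1-like nuclei 54.4 ± 7.85 and CA3-like nuclei 44.9 ± 5.99. Neighbours in this order overlapped: granule-like mice ranged from 49.5 to 66.3 CPM, CA1-like mice from 43.8 to 66.9 and CA3-like mice from 37.8 to 56.4. Hilar mossy cell-like nuclei (32.3 ± 11.4, n = 8) and subicular or cortical excitatory-like nuclei (28.3 ± 4.23, n = 13) came next among excitatory neurons. The interneuron classes were lower, from 21.2 ± 6.67 CPM in Lamp5-like nuclei to 9.18 ± 4.1 in somatostatin-like nuclei. Some non-neuronal classes stood above them on few UMIs: border macrophage-like nuclei had 35.2 ± 15.2 CPM (n = 8), mural-like nuclei 31.7 ± 27 (n = 8) and endothelial-like nuclei 22.8 ± 13.6 (n = 9). Of their Chrm1 UMIs, 54 of 61, 19 of 26 and 10 of 18 lay in nuclei with at least 5 UMIs of Meg3, an abundant nuclear RNA of neurons. Astrocyte-like nuclei (6.82 ± 3.18) and oligodendrocyte-like nuclei (8.51 ± 4.61) held the lowest values of the 19 classes.

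Shares of nuclei with a UMI are given as means over mice, each mouse weighted equally, unless numbers of nuclei are printed. For Chrm1 the share was 43.4% in CA1-like, 41.9% in CA3-like and 34% in granule-like nuclei. It was 1.95% in astrocyte-like and 1.52% in oligodendrocyte-like nuclei. Free RNA in the droplets was not measured, and its part in low values was not tested. Depth differs between these classes, with median UMIs per nucleus of 6370 for granule neurons, 10300 for CA1, 2700 for astrocytes and 1880 for oligodendrocytes. With every nucleus thinned to 1000 UMIs, the shares were 5.21% in CA1-like, 4.68% in CA3-like and 5.98% in granule-like nuclei, still above 0.704% in astrocyte-like and 0.75% in oligodendrocyte-like nuclei.

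Chrm3 was high in nearly all neuron classes other than granule-like nuclei. CA1-like nuclei held 1383 ± 319 CPM (n = 13), mossy cell-like nuclei 1362 ± 334 (n = 8), subicular or cortical excitatory-like nuclei 1246 ± 150.2 and CA3-like nuclei 1239 ± 222. Their ranges over mice overlapped throughout. Cnr1-high interneuron-like nuclei (1061 ± 311), Vip-like nuclei (1016 ± 128) and somatostatin-like nuclei (862 ± 183) were close behind, while Lamp5-like nuclei (289 ± 65.5) and parvalbumin-like nuclei (212 ± 30.6, n = 12) were lower. The highest Lamp5-like mouse measured 432 CPM and the lowest somatostatin-like mouse 521, and these steps met only through Cnr1-high-like nuclei, whose lowest mouse measured 366. Granule-like nuclei, the most abundant neurons of the data, held only 23.3 ± 4.47 CPM, close to astrocyte-like (16 ± 10.2) and oligodendrocyte-like nuclei (29.2 ± 18.9).

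The shares of nuclei showed the same split. At 1000 UMIs per nucleus a Chrm3 UMI was found in 68.7% of mossy cell-like, 64.1% of CA3-like and 62.3% of CA1-like nuclei (97.1%, 96.9% and 86.6% at full depth). Vip-like nuclei were at 57.5%, and both Cnr1-high-like and somatostatin-like nuclei at 48%. Lamp5-like nuclei were lower at 24.1% and parvalbumin-like nuclei at 16.6%. The share in granule-like nuclei was 1.81%, near the 1.67% of astrocyte-like nuclei. For Chrm3 the granule-like class as a whole could thus not be told from astrocyte-like nuclei at this depth.

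Within some classes Chrm3 separated clusters. The 5 receptor genes were kept out of the genes used for clustering, but other genes of the same nuclei were used, so these differences are descriptions. CA1-like nuclei formed cluster 2 (led by Stac, Galntl6 and Nell1), with 1975 ± 221 CPM of Chrm3, and cluster 3 (led by Pde11a, Dcn, Cpne7 and Npr3), with 541 ± 269 (n = 13 for each); Chrm1 differed little between them, 58.9 against 48.4 CPM. Among granule-like nuclei, clusters 6 and 8 held 9.32 and 10.9 CPM of Chrm3, while cluster 11 (led by Sv2c and Synpr) held 75 ± 23.6 and cluster 7 52.2. Fibroblast-like nuclei split as well, with 1359 ± 261 CPM in cluster 18 (led by Bnc2 and Slc47a1, n = 5 mice) and 102 ± 91.7 in cluster 10 (led by Slc7a11, Slc6a13 and Ptgds, n = 8). The mice with at least 20 nuclei in cluster 18 were all restricted, while those of cluster 10 came from every group. Mice below that floor held cluster 18 nuclei as well. Among mice with any, they made up 21.7% to 37.5% of fibroblast-like nuclei in young and 13% to 37.5% in old ad libitum mice. The shares were 22.7% to 32.2% after acute and 27.7% to 45.5% after long-term restriction. The highest Chrm3 of any cluster was in cluster 33, which was left unnamed (led by 9330185C12Rik, Plch1, Rxfp1, Nell1 and Fn1): its 7 mice ranged from 2314 to 3388 CPM.

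Outside neurons, Chrm3 values have to be read beside neuronal RNA in the same nuclei. Meg3 was used as its measure: 84.1% of CA1-like and granule-like nuclei held at least 5 Meg3 UMIs. Border macrophage-like nuclei had 463 CPM of Chrm3, but 870 of their 881 Chrm3 UMIs lay in the 135 of 383 nuclei with at least 5 Meg3 UMIs. Of the Chrm3 UMIs of endothelial-like nuclei, 189 of 205 lay in 31 of 380 nuclei, and of those of mural-like nuclei, 82.9% lay in such nuclei. Fibroblast-like nuclei were different in this respect: 195 of 1064 Chrm3 UMIs (18.3%) lay in Meg3 nuclei. The share was 23.3% in oligodendrocyte precursor-like nuclei (313 of 1345 UMIs, in Meg3 nuclei that made up 247 of 2873). The shares were 3% in astrocyte-like, 2.97% in oligodendrocyte-like and 3.3% in microglia-like nuclei, whose Chrm3 levels were low (16, 29.2 and 34.6 CPM).

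Chrm5, the third Gq-coupled receptor, gave 102 UMIs in all 98041 nuclei, and 54 of them lay in CA1-like nuclei. The CA1-like level was 0.663 ± 0.379 CPM (n = 13), with a Chrm5 UMI in 54 of 8584 CA1-like nuclei against 4 of 40464 granule-like nuclei. A further 14 UMIs lay in the unnamed cluster 29 (led by Cpa6 and Dcn). Chrm5 was not tested in the main fits because it passed the filter on low counts in no class.

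Of the Gi-coupled receptors, Chrm2 was found in fewer neurons of the named classes than Chrm1 or Chrm3. Named classes held only 9735 of all 23777 Chrm2 UMIs, so class levels and class comparisons of Chrm2 leave out most of them. Among the named classes its highest level was in Cnr1-high interneuron-like nuclei, 204 ± 138 CPM (n = 13), followed by parvalbumin-like nuclei (162 ± 88, n = 12), subicular or cortical excitatory-like nuclei (118 ± 51.2) and somatostatin-like nuclei (89.1 ± 35.9). These 4 classes overlapped one another over mice, since the Cnr1-high-like values alone ran from 11.7 to 515. All other named classes had means of at most 16.7 CPM: Lamp5-like nuclei held 9.34, Vip-like nuclei 6.13, CA1-like nuclei 2.33, granule-like nuclei 1.44 and astrocyte-like nuclei 1. Lamp5-like and Vip-like nuclei therefore lay far below the other interneuron classes.

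How Chrm2 was spread over nuclei differed between those classes. In parvalbumin-like nuclei 386 of 887 held a Chrm2 UMI, and 64.8% of the UMIs lay in the 132 nuclei with 5 or more. Cnr1-high-like nuclei held a Chrm2 UMI in 93 of 696, and 95.8% of the UMIs lay in only 52 nuclei, with up to 139 in 1 nucleus. The class mean for Cnr1-high-like nuclei thus describes a small group with a high level. In the subicular or cortical class, cluster 13 (led by Il1rapl2, Kcnh8 and Cntn6) held 210 ± 68.4 CPM and cluster 14 (led by Rmst, Hs3st2 and Sulf1) 65.2 ± 27.5, whereas their Chrm3 levels were 1252 and 1270. Unnamed clusters also carried Chrm2: cluster 27 (leading genes include Tshz2 and Htr2c) held 262 ± 149 CPM, above the mean of every named class, and cluster 5 (led by Vwc2l, Npsr1 and Tshz2) 193 ± 26.8. Cluster 5 alone held 22.8% of all Chrm2 UMIs and was low for Chrm3 (78.8 ± 27.1), whereas cluster 33, the Chrm3-richest, held 90.3 CPM of Chrm2, about the level of somatostatin-like nuclei.

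Chrm4 gave 62 UMIs in all nuclei, 19 of them in granule-like and 11 in CA1-like nuclei. A Chrm4 UMI was found in 11 of 8584 CA1-like and 19 of 40464 granule-like nuclei. Its highest class mean, 1.19 CPM in Cajal-Retzius-like nuclei, rested on 1 UMI. Both single-exon receptor genes were therefore near the limit of these libraries in every class, where 3 UMIs are the smallest count treated as detected, and nothing is compared for them between groups.

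The genes whose levels were most like each receptor over the 19 classes were listed by Pearson's r of mean log2 CPM, as a description across classes that share libraries. For Chrm1 they were Gm26652 (0.958), 4933412O06Rik (0.949), A530046M15Rik (0.946), Camkk1 (0.929) and Crocc (0.925). Chrm2 was most like Cntnap3 (0.899), A430010J10Rik (0.843), Limk1 (0.841), Tfg (0.84) and Pdcd7 (0.836). Chrm3 was most like Camk4 (0.867), Etl4 (0.858), Nell1 (0.856) and Ldb2 (0.824). Among the receptors, r was -0.207 for Chrm1 and Chrm2, 0.233 for Chrm1 and Chrm3, and 0.355 for Chrm2 and Chrm3.

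Differences between groups were fitted with edgeR's quasi-likelihood test on UMIs summed per mouse in 14 classes, over all genes, with Benjamini-Hochberg adjustment within each class and a call at adjusted p under 0.05. Of the 70 pairs of a receptor and a class, 29 passed the filter on low counts: 9 for Chrm1, 7 for Chrm2 and 13 for Chrm3. The ageing comparison called 0 of these 29, against 1.26% of all 134296 gene and class pairs tested; 6 of the 29 had an unadjusted p under 0.05, as had 22629 of the 134296 pairs, and DESeq2 called 2, against 2.58% of all pairs. The ageing values were known when the genes were chosen, so these numbers say nothing further about the receptors. The median log2 fold change of the 29 pairs, old against young, was 0.221, with 19 higher and 10 lower in old mice, and the median of all gene and class pairs was -0.02. The p-values behind all calls measure the spread between these mice. The 95% intervals were made from the SE and a normal quantile, so they are narrower than the edgeR test implies for so few mice. An interval can therefore leave out 0 while the unadjusted p is above 0.05, and calls rest on the test alone.

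**Figure D2:**
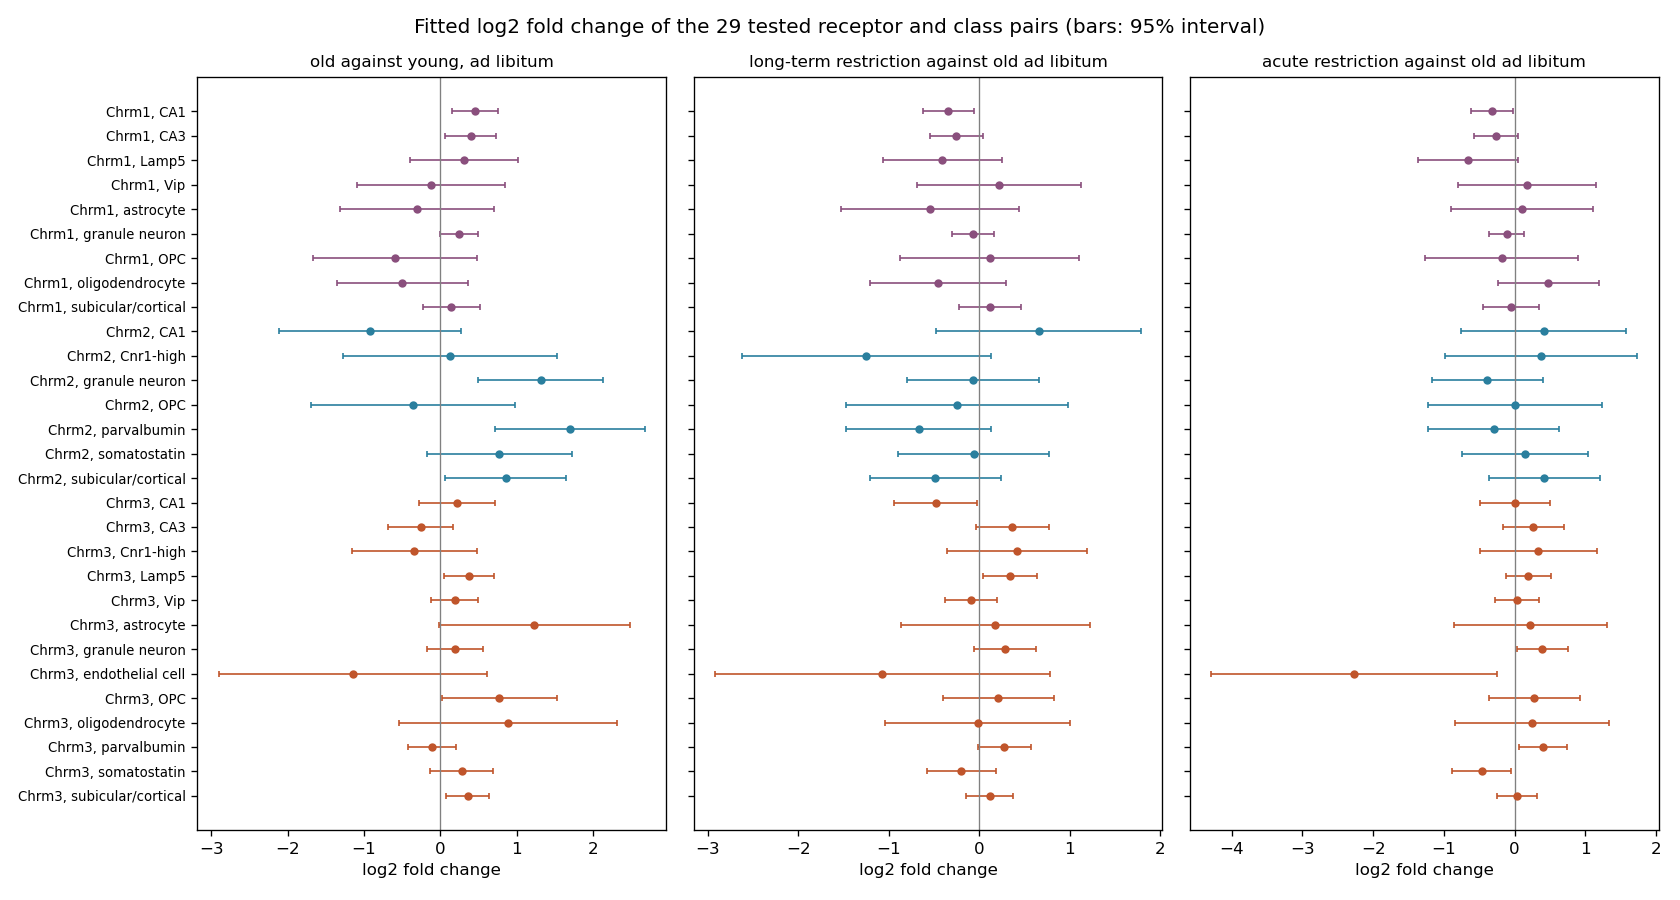
Fitted log2 fold change, on the horizontal axis, of the 29 tested pairs of receptor and class in 3 comparisons. Points are edgeR estimates, coloured by receptor, and bars are nominal 95% intervals from a normal quantile. In the ageing panel most points lie to the right of 0, with the largest in Chrm2 of parvalbumin-like (1.70) and granule-like nuclei (1.32), while the restriction panels are spread around 0 and none of their pairs passed the adjusted threshold.

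Chrm1 in CA1-like nuclei measured 53.9, 44.3 and 51.9 CPM for the 3 young animals, compared with 62.6, 62.8 and 66.9 for the 3 old ad libitum animals. Every old ad libitum mouse was above every young one, and the fitted log2 fold change was 0.45 ± 0.16 (SE), or 0.23 with UMIs per nucleus as a covariate. In CA3-like nuclei the values were 41.3, 37.8 and 41.6 in young and 44.7, 54 and 56.4 in old ad libitum mice, again without overlap, for a log2 fold change of 0.40 ± 0.17, or 0.22 with clusters at resolution 2. Granule-like nuclei differed less, with 60.6, 49.5 and 64.7 CPM in young and 61.6, 61.5 and 62.9 in old ad libitum mice.

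Restricted mice had CA1-like Chrm1 values of 49.9, 61.5 and 45.4 CPM after acute restriction and 43.8, 56.2, 59.9 and 48.1 after long-term restriction. All 7 were below the 3 old ad libitum mice and spanned the young range. The log2 fold change against old ad libitum mice was -0.34 ± 0.14 for long-term restriction (95% interval -0.62 to -0.06, edgeR adjusted p = 0.867) and -0.32 ± 0.15 for acute restriction (-0.61 to -0.02, adjusted p = 1), so neither passed. Both use the same old ad libitum mice, whose values were close together. The ageing values, known when the genes were chosen, rest on these mice too. The place of the restricted mice below them is therefore not independent of that choice.

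Chrm1 in oligodendrocyte-like nuclei was low, with 3.8, 11.4 and 16.2 CPM after acute and 6.16, 8.01, 5 and 6.22 after long-term restriction, from 1 to 36 UMIs per mouse. The groups overlapped through acutely restricted mouse 1, which had 1 UMI. Long-term against acute restriction gave -0.94 ± 0.37 (-1.66 to -0.21, edgeR adjusted p = 0.675), the smallest adjusted p of the receptor pairs in that comparison. The value was -1.02 without Meg3 nuclei (explained above for Chrm3) and -0.64 without acutely restricted mouse 3. Against old ad libitum mice (9.91, 10.7 and 6.24 CPM) it was -0.46 for long-term (adjusted p = 0.798) and 0.48 for acute restriction (adjusted p = 0.718), and the young mice measured 0, 15.5 and 11.5 CPM.

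Long-term restriction called 0 of the 29 pairs, against 0.0343% of all pairs tested, with 2 at an unadjusted p under 0.05 (6566 of all 134296) and 0 by DESeq2 (0.0514% of all pairs). Acute restriction also called 0, against 0.169% of all pairs, with 2 at an unadjusted p under 0.05 (6332 of all) and 0 by DESeq2 (0.14%). The direct comparison of long-term with acute restriction called 0, against 0.00819% of all pairs, with 3 at an unadjusted p under 0.05 (4302 of all) and 0 by DESeq2 (0.0104%). With so few calls over all genes, a count of 0 among 29 pairs is near the background. The members' median log2 fold changes were -0.07, 0.10 and -0.03 in that order, beside medians over all pairs of 0.00125, -0.000695 and -0.00143.

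Chrm3 in CA1-like nuclei measured 1411, 1026 and 1785 CPM in young, 1814, 1288 and 1466 in old ad libitum, 1383, 1964 and 1356 in acutely restricted and 1390, 1143, 1025 and 928 in long-term restricted mice. All 4 groups overlapped, and the 3 lowest long-term values lay below all old ad libitum values. The log2 fold change was 0.22 ± 0.25 for ageing, 0.01 ± 0.25 for acute restriction (-0.49 to 0.50, adjusted p = 1) and -0.48 ± 0.24 for long-term restriction (-0.95 to -0.02, adjusted p = 0.877), with -0.29 for the last without old ad libitum mouse 1. The sign for acute restriction turned when single libraries were left out, for example to -0.20 without acutely restricted mouse 2, and the ageing value turned to -0.26 with UMIs per nucleus as a covariate.

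The share of CA1-like nuclei in each cluster also differed between mice, and its part in the class values was not tested. The high cluster 2 held 55.1% to 86.1% of CA1-like nuclei in young, 53.6% to 83.6% in old ad libitum, 48.2% to 88.4% in acutely restricted and 34.9% to 59.9% in long-term restricted mice. In cluster 2 the Chrm3 level was 2157, 1644 and 2062 CPM in young and 2101, 1961 and 1936 in old ad libitum mice, a log2 fold change of 0.08 ± 0.14. Within the low cluster 3 it was 283, 228 and 287 in young and 755, 545 and 729 in old ad libitum mice, a log2 fold change of 1.49 ± 0.35. All 7 restricted mice also lay above the young range in cluster 3, with 579, 1254 and 430 CPM after acute and 402, 425, 565 and 550 after long-term restriction. Against old ad libitum mice, long-term restriction gave -0.14 in cluster 2 and -0.49 in cluster 3, both with an adjusted p of 1.

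Fits on single clusters were added after seeing the data, and edgeR called 0 of 56 pairs in every comparison. Of all pairs, 0.843% were called for ageing (0.236% in cluster 3), 0.0195% for long-term restriction, 0.0998% for acute restriction and 0.00467% for long-term against acute restriction.

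**Figure D3:**
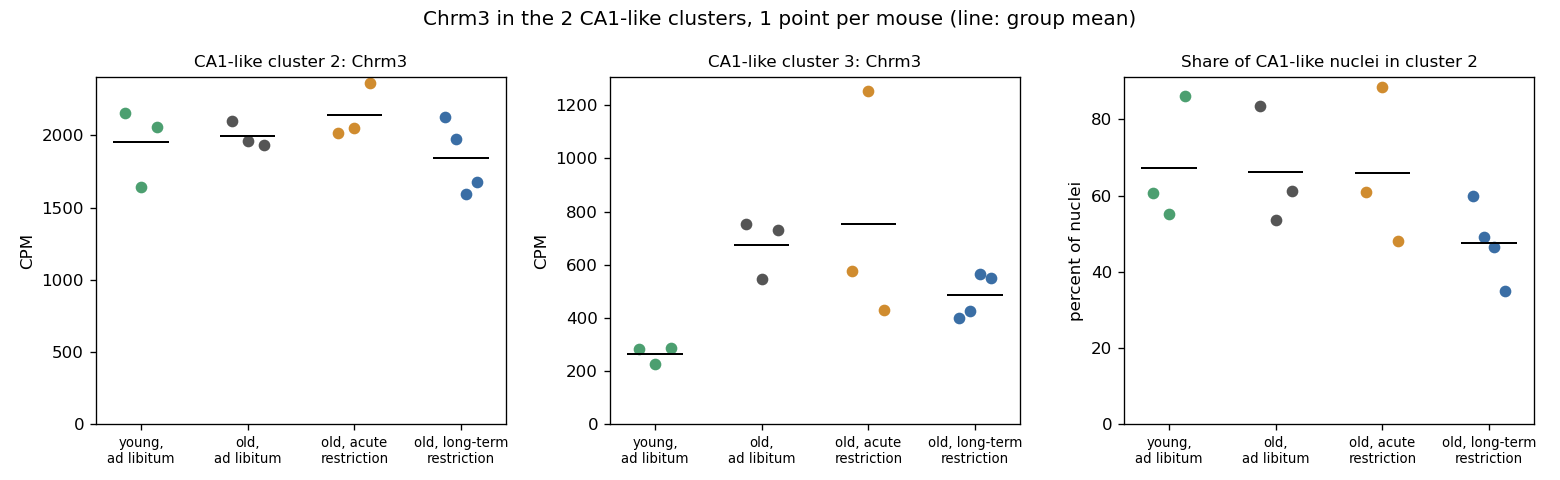
Chrm3 in CPM in CA1-like cluster 2 (left) and cluster 3 (middle), and the percent of CA1-like nuclei in cluster 2 (right), for each mouse by group; lines are group means. Cluster 2 levels overlap in all groups, the 3 young mice are the lowest in cluster 3 (228 to 287 CPM), and the long-term restricted mice have 34.9% to 59.9% of their CA1-like nuclei in cluster 2.

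Other neuron classes showed Chrm3 differences of similar size. Lamp5-like nuclei measured 224, 179 and 254 CPM in young, 287, 270 and 252 in old ad libitum, 307, 240 and 368 in acutely restricted and 289, 322, 330 and 432 in long-term restricted mice. Each long-term restricted mouse was above each old ad libitum mouse, with a log2 fold change of 0.34 ± 0.15 (0.04 to 0.64) that did not pass (adjusted p = 1). Parvalbumin-like nuclei of acutely restricted mice (233 and 264) were above those of old ad libitum mice (186, 154 and 207), with 0.40 ± 0.17 (adjusted p = 1), and somatostatin-like nuclei were below (817, 521 and 835 against 970, 1030 and 1013), with -0.47 ± 0.21 (adjusted p = 1) that was -0.29 without acutely restricted mouse 2. The fitted signs thus differed between interneuron classes, but no difference passed, and the classes were not tested against each other.

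Subicular or cortical excitatory-like nuclei measured 1130, 925 and 1156 CPM of Chrm3 in young and 1173, 1302 and 1296 in old ad libitum mice, which did not overlap (log2 fold change 0.36 ± 0.14). The value was 0.05 after removal of the trend with gene length and 0.23 without young mouse 2. It also differed between the clusters of the class, with 0.54 ± 0.17 in cluster 14 and -0.002 ± 0.20 in cluster 13.

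Granule-like nuclei measured 14.7 to 25.2 CPM in old ad libitum mice and 18.9 to 21.8 in young mice. The mix of clusters among granule-like nuclei differed between these groups. Cluster 6 held 10.1% to 59.4% of them in young and 30.2% to 50.6% in old ad libitum mice. For cluster 8 the shares were 26.1% to 36.5% and 22.4% to 30.9%. The Chrm3-richer cluster 11 held 2.61% to 6.2% in young and 20.9% to 36.1% in old ad libitum mice. Within cluster 11, however, Chrm3 was lower in old mice: it measured 104, 83.5 and 95.9 CPM in young and 50.1, 59.8 and 35.3 in old ad libitum mice, without overlap, a log2 fold change of -0.89 ± 0.32. Acutely restricted mice had 83.9, 99.8 and 62.2 CPM there (0.74 ± 0.29 against old ad libitum, adjusted p = 0.902) and long-term restricted mice 97.7, 97.3, 48.4 and 56.9 (0.63 ± 0.28, adjusted p = 1). Cluster 17 moved the other way from cluster 11 in share: it held 2.08%, 57.9% and 20.2% of granule-like nuclei in young and at most 0.501% in old ad libitum mice.

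The remaining Chrm3 pairs had no restriction call either. In CA3-like nuclei Chrm3 measured 1402, 916 and 1509 CPM in young, 1187, 1104 and 774 in old ad libitum, 1229, 1452 and 1169 in acutely restricted and 1520, 1369, 1184 and 1289 in long-term restricted mice. The fitted values there were 0.36 ± 0.21 for long-term and 0.26 ± 0.22 for acute restriction. Vip-like nuclei ranged from 739 to 1254 CPM over all mice, with -0.09 ± 0.15 and 0.03 ± 0.16 in the same order. In endothelial-like nuclei, where nearly all Chrm3 UMIs lay in Meg3 nuclei, values ran from 0 to 595 CPM and the acute value was -2.27 ± 1.03 (-4.29 to -0.25, adjusted p = 0.994).

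Chrm2 in parvalbumin-like nuclei measured 59, 82.8 and 102 CPM for the young, compared with 98.1, 345 and 286 for the old ad libitum group, with overlap at old ad libitum mouse 1. The log2 fold change was 1.70 ± 0.50, with 2.09 ± 0.28 without that mouse and 1.86 with only libraries not numbered 1. Restricted mice lay mostly between, at 241 and 150 after acute restriction and 179, 141, 165 and 94.3 after long-term restriction. The long-term difference was -0.67 ± 0.41 (-1.48 to 0.13, adjusted p = 1) over all libraries, and it was -1.22 with an adjusted p of 0.0117 when only libraries not numbered 1 were fitted. Single old ad libitum mice set its size: it was -1.07 without mouse 1 and -0.32 without mouse 2, and it did not pass in either fit.

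**Figure D4:**
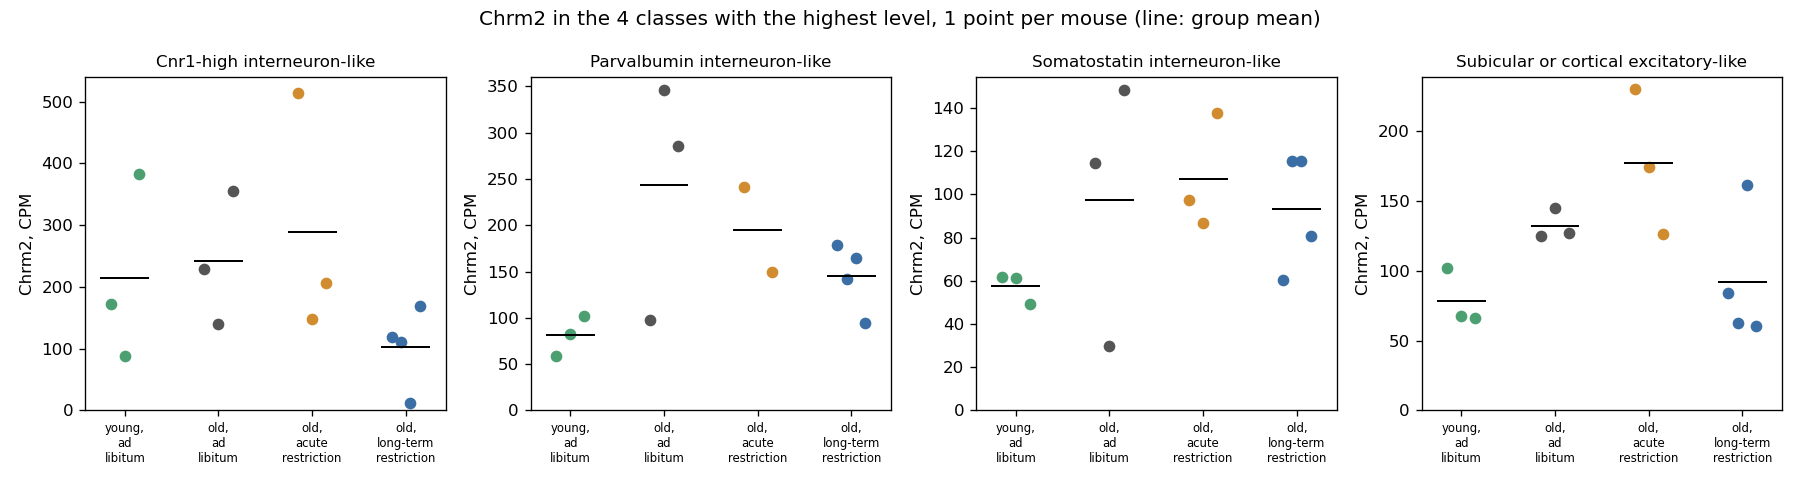
Chrm2 in CPM for each mouse by group in the 4 classes with the highest level; lines are group means and the vertical axes differ. In parvalbumin-like nuclei 2 of the 3 old ad libitum mice measure 286 and 345 CPM, above all young mice, and in subicular or cortical excitatory-like nuclei the 3 acutely restricted mice lie at 126 to 230.

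In subicular or cortical excitatory-like nuclei Chrm2 measured 102, 67.7 and 65.9 CPM in young, 125, 145 and 127 in old ad libitum, 230, 174 and 126 in acutely restricted and 84.4, 62.3, 161 and 60.4 in long-term restricted mice. Old ad libitum mice lay above young ones without overlap (log2 fold change 0.85 ± 0.41), and 3 of 4 long-term restricted mice lay below them. Long-term against acute restriction gave -0.91 ± 0.37 (-1.64 to -0.17, adjusted p = 1), with -1.36 to -0.63 when 1 mouse was left out and -0.59 with only libraries not numbered 1. The Chrm2-rich cluster 13 held a median 49.2% of this class in acutely restricted (22.9% to 68.4%) and 36.9% in old ad libitum mice (28.7% to 39.8%). It held 26.5% in young (19.1% to 34.4%) and 20.7% in long-term restricted mice (11.9% to 28.1%). The 68.4% came from acutely restricted mouse 2, with 57 nuclei of the class. Only old ad libitum and long-term restricted mice did not overlap. The part of cluster composition in the Chrm2 values was not tested.

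Cnr1-high interneuron-like nuclei had the widest spread, with 172, 87.9 and 383 CPM of Chrm2 in young, 229, 141 and 355 in old ad libitum, 515, 148 and 207 in acutely restricted and 119, 112, 11.7 and 169 in long-term restricted mice. Long-term against acute restriction gave -1.62 ± 0.69 (-2.98 to -0.27, adjusted p = 1). The difference was -0.81 without acutely restricted mouse 1 (515 CPM) and -0.96 with only libraries not numbered 1. Somatostatin-like nuclei measured 61.9, 61.3 and 49.2 in young and 114, 29.9 and 148 in old ad libitum mice, with overlap. In granule-like nuclei the mean Chrm2 level lay between those of astrocyte-like (1 CPM) and oligodendrocyte-like nuclei (2.24 CPM). Young mice had 0.684, 1.03 and 0.717 CPM there and old ad libitum mice 1.14, 2 and 2.1, from 12 to 58 UMIs per mouse. The log2 fold change was 1.32 ± 0.42, and 1.43 with only libraries not numbered 1. Cluster composition differed between these groups as given above for Chrm3, and its part in the Chrm2 value was not tested. Within cluster 11, where Chrm2 had 3.56 ± 1.38 CPM, the ageing value was 0.77 ± 0.60, and within cluster 6 it was 0.87 ± 0.67. Cluster 17 held 14 Chrm2 UMIs in the 3768 nuclei of mice with at least 20 nuclei there. Young mouse 2, whose library had the fewest UMIs per nucleus (median 3801), gave 2639 of these nuclei. Young mice 1 and 3 gave 74 and 767. No old ad libitum mouse reached 20 nuclei there.

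Chrm3 in oligodendrocyte precursor-like nuclei needs a closer account, because single nuclei held much of the signal in several mice. Summed over the class, UMIs of all 8 precursor markers were found in every mouse, but the class was named from these markers. The granule list also had UMIs of all its 10 genes in some mice. Chrm3 measured 143, 36.7 and 46.7 CPM in young, 146, 107 and 125 in old ad libitum, 138, 126 and 181 in acutely restricted and 166, 139, 137 and 130 in long-term restricted mice. In young mouse 1, the exception among the young, 55 of 70 Chrm3 UMIs came from 1 nucleus, which held at least 5 Meg3 UMIs. The richest nucleus also held 42 of 130 UMIs in old ad libitum mouse 1, 39 of 132 in long-term restricted mouse 1 and 33 of 191 in acutely restricted mouse 3. The ageing log2 fold change over all nuclei was 0.77 ± 0.38, 1.52 with only libraries not numbered 1, and 0.49 to 1.64 when 1 mouse was left out (lowest without young mouse 2, highest without young mouse 1). An ageing difference of Chrm3 in this class was among the results known when the genes were chosen, so it is described and not counted as support.

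When nuclei with 5 or more Meg3 UMIs were left out, a step added after these values were seen, the young mice measured 34.1, 36.1 and 37 CPM and the old ad libitum mice 106, 107 and 129. Acutely restricted mice then measured 129, 132 and 145 and long-term restricted mice 118, 137, 147 and 130, so all 10 aged mice lay above all 3 young ones. The ageing log2 fold change became 1.74 ± 0.20 (1.35 to 2.12). The cut is an absolute count, and nuclei of old mice were deeper. It took out 4.61%, 1.97% and 7.06% of the nuclei of young and 10.5%, 12.4% and 10.6% of those of old ad libitum mice. No fit without Meg3 nuclei used UMIs per nucleus as a covariate. Long-term restriction gave 0.23 against old ad libitum mice (-0.05 to 0.50, adjusted p = 0.877) and acute restriction 0.26 (-0.03 to 0.55, adjusted p = 0.84).

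A Chrm3 UMI was found in 5.92%, 5.42% and 9.41% of the precursor-like nuclei of the young, compared with 24.8%, 21.1% and 24.5% for the old ad libitum group. Thinned to 1000 UMIs per nucleus, which left out 0 to 6 shallower nuclei per mouse, the shares were 3.29%, 2.54% and 7.1% in young, 8.27%, 7.86% and 10% in old ad libitum, 9.2% to 13.5% in acutely restricted and 9.38% to 11.9% in long-term restricted mice. Young mouse 3 came closest to the aged mice, and no young mouse reached them.

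The precursor-like nuclei of young mice were shallower, with medians of 1906 to 2846 UMIs against 3394 to 6070 in old ad libitum mice, and with the median UMIs per nucleus as a covariate the ageing value was 0.45. Summed levels of the CA1 marker list in this class were 113 to 180 CPM in young and 104 to 138 in old ad libitum mice, and those of the granule list 938 to 1180 and 1027 to 1355, so neither list separated the groups. The inhibitory neuron list was higher in old mice, 5354 to 5774 against 4313 to 5192 CPM, as was the subicular or cortical list, 1176 to 1346 against 903 to 1092. The precursor list itself was higher in old mice without overlap, 14430 to 15310 against 12300 to 13740 CPM, and the oligodendrocyte list was at 149 to 190 against 98.3 to 152, with a narrow overlap. The fibroblast list was lower in old mice without overlap, 2.2 to 3.37 against 4.1 to 14.7 CPM. The CA3 list overlapped, at 178 to 246 against 152 to 201. Acutely restricted mice stood above old ad libitum mice without overlap for the CA1 list (174 to 190 against 104 to 138 CPM) and the inhibitory neuron list (6389 to 7289 against 5354 to 5774), while long-term restricted mice overlapped them for both (127 to 195 and 5400 to 6319). The part of these lists in the Chrm3 values was not tested.

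**Figure D5:**
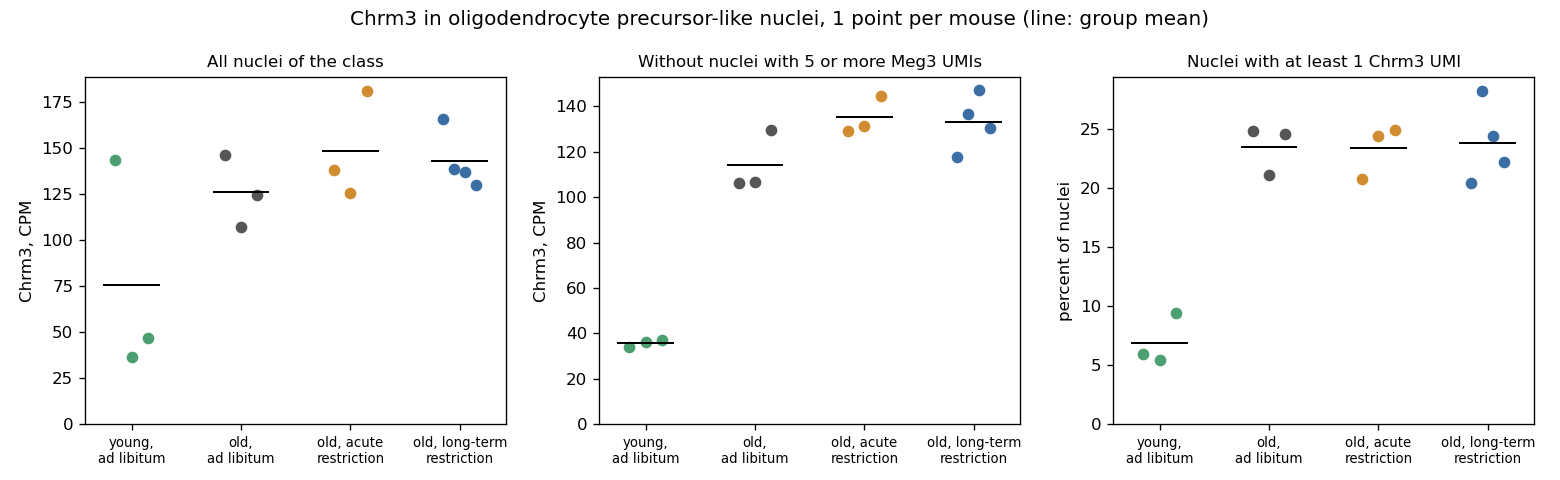
Chrm3 in oligodendrocyte precursor-like nuclei of each mouse by group: CPM over all nuclei (left), CPM without nuclei holding 5 or more Meg3 UMIs (middle) and percent of nuclei with a Chrm3 UMI at full depth (right); lines are group means. One young mouse at 143 CPM in the left panel moves to 34.1 in the middle panel, and in the right panel the young mice lie at 5.42% to 9.41% and the aged mice at 20.4% to 28.2%.

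The other glia were compared in the same way, with no test between classes. Without Meg3 nuclei, Chrm3 in oligodendrocyte-like nuclei was 10.8 to 23.1 CPM in young and 8.06 to 44.2 in old ad libitum mice. Astrocyte-like nuclei ranged from 4.89 to 8.66 and from 8.12 to 31.9 CPM, which overlapped narrowly. Microglia-like nuclei ranged from 0 to 21.7 in young and from 36.9 to 62 in old ad libitum mice, which did not overlap, on at most 18 UMIs per mouse before the step; long-term restricted mice spanned both, from 9.89 to 85.7.

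The partners of these receptors were read from 7 lists with 79 genes, of which 66 could be tested in at least 1 class, giving 637 gene and class pairs. In ageing 28 pairs, of 18 genes, were called higher and 0 lower (4.4%; of all pairs 0.723% were called higher and 0.536% lower), and the median log2 fold change was 0.203. The lists were drawn up with ageing results of these data known, so this share is not evidence about the pathway. The Gq arm, which holds phospholipases C, inositol trisphosphate receptors, protein kinases C and diacylglycerol kinases, had 13 of 164 pairs higher, with a median of 0.344. The M current channels had 5 of 47 pairs higher (median 0.38), and the Gi arm, with adenylyl cyclases and inwardly rectifying channels, 8 of 200 (median 0.153). Receptor regulators had 1 of 107 and nicotinic receptor modulators 1 of 75, with medians of 0.19 and -0.353. None of the 26 pairs of nicotinic subunits and none of the 18 pairs for synthesis, transport and breakdown of acetylcholine was called.

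Oligodendrocyte-like nuclei held 12 of the 28 pairs and granule-like nuclei 10. These are also classes with many calls over all genes, where 3.64% and 2.55% were called higher. In oligodendrocyte-like nuclei, log2 fold changes were 1.26 ± 0.25 for Rgs7, which speeds the shut-off of Gi and Go, 0.99 ± 0.22 for Plcb1, 1.60 ± 0.35 for Dgkb, 1.66 ± 0.45 for Dgkg, 1.01 ± 0.24 for Itpr1 and 0.57 ± 0.14 for Gnao1, the Go subunit. Lypd6b, a modulator of nicotinic receptors, rose there by 1.33 ± 0.29. Granule-like nuclei had higher Plcb4 (1.41 ± 0.25) and Dgkg (0.68 ± 0.13). Itpr1 rose in precursor-like nuclei by 0.96 ± 0.20, and in microglia-like nuclei Kcnq5, an M current channel, rose by 2.50 ± 0.53 and Dgkb by 1.69 ± 0.40. The Kcnq5 values of the groups overlapped there, with mean log2 CPM of 5.56 ± 0.69 (SD) in young and 6.95 ± 0.65 in old ad libitum mice. Young mouse 1 entered with 20 microglia-like nuclei. Dgkg in oligodendrocyte-like nuclei also overlapped.

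The number of these ageing calls moved with depth and with single mice, as did the number over all genes. They numbered 2 with UMIs per nucleus as a covariate, where the share over all pairs dropped from 1.26% to 0.0737%, and 3 after removal of the trend with gene length, where it was 0.511%. They numbered 4 to 35 when 1 mouse was left out, the lowest being without old ad libitum mouse 2 (0.264% over all pairs) or without young mouse 2 (0.15%). The non-neuronal classes gave 17 of the 28 calls, and 14 when nuclei with 5 or more Meg3 UMIs were left out of them. In the latter fits 2.83% of all pairs of these classes were called for ageing, in either direction.

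Under restriction the only calls edgeR made in the 7 lists were of nicotinic receptor modulators. Long-term restriction called 1 of 637 pairs (0.157%, against 0.0208% of all pairs called lower). Lypd6b fell in oligodendrocyte-like nuclei, with a log2 fold change of -0.95 ± 0.22 (edgeR adjusted p = 0.0487). The groups overlapped, with mean log2 CPM of 4.90 ± 0.51 (SD) in long-term restricted and 5.61 ± 0.31 in old ad libitum mice. The count for long-term restriction was 0 to 5 when 1 mouse was left out. It was 0 without any 1 of acutely restricted mice 1, 2 and 3, old ad libitum mouse 4, young mouse 3 or long-term restricted mice 2 and 4. It was 5 without long-term restricted mouse 3, where the share over all pairs rose from 0.0343% to 0.123%. Acute restriction called 2 (0.314%, against 0.0946% of all pairs called lower), both in oligodendrocyte-like nuclei: Lypd6b at -1.51 ± 0.25 (adjusted p = 0.000519) and its relative Lypd6 at -0.999 ± 0.24 (adjusted p = 0.0199). With 1 mouse left out the count for acute restriction was 1 to 3, the lowest without acutely restricted mouse 1 or 3 or old ad libitum mouse 4. Long-term against acute restriction called 0 of 637. Lypd6b was also among the ageing calls in oligodendrocyte-like nuclei, from the same old ad libitum mice. Its rise with age and its fall under restriction are therefore not independent. The restriction calls all lay in oligodendrocyte-like nuclei, whereas the shares beside them are over all classes. In the non-neuronal classes, fitted without Meg3 nuclei, 0.133% of all pairs were called for long-term and 0.599% for acute restriction, in either direction.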

How the data were processed

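Nuclei from whole frozen hippocampus had been sorted and sequenced with 10x Genomics 3' chemistry. The authors deposited 1 matrix of UMI counts per mouse, made with Cell Ranger 4.0.0 per the file headers and on build mm10 per the submitters' processing notes; the annotation, intron counting and treatment of free RNA and doublets are not given in the sources used here. Of 105759 barcodes, 105427 passed a floor of 500 genes and a ceiling of 5% mitochondrial UMIs, and Scrublet marked 0.8% per 1000 nuclei as doublets, which were left out. Nuclei were clustered with scanpy 1.11.5 and leidenalg 0.10.2 (2000 variable genes, 30 components, 20 neighbours, resolution 1). Clusters were named from marker lists by a scoring rule set after the data had been seen; a cut at 5 Meg3 UMIs, which uses neither the groups nor the receptors, was likewise set afterwards.

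UMIs were summed per mouse and class. CPM and log2 CPM (prior count 2) were computed from these sums, and edgeR 4.0.16 in R 4.3.3 (TMM, quasi-likelihood test, all 4 groups in 1 fit, filter on low counts, at least 20 nuclei per mouse) was run over all genes after being tested on simulated data. DESeq2 1.42.0, other scalings and filters, replicate number, depth, gene length, single mice, doublets, resolution and single clusters were alternatives. Gene spans came from GENCODE vM21 (99.6% of genes matched). The members, gene lists and alternatives were chosen with earlier results of these data known. The genes to name were the receptors in each class where they passed the filter (Chrm4 and Chrm5 passed in none; pairs without values in the text stand only in the plot of fitted fold changes), of the pathway lists up to the 12 called pairs of smallest adjusted p per comparison, and the 5 genes most like each receptor over classes, of which 1 is not reported here. Each library is taken as 1 mouse, since the labels mention no pooling. Intervals cover the spread between mice, and shares of nuclei carry counting error as well. The 95% intervals of fold changes use a normal quantile and are too narrow for so few mice. For example, Chrm3 in astrocyte-like nuclei without Meg3 nuclei had an ageing interval of 0.092 to 2.484 at an unadjusted edgeR p of 0.0516.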

Additional observations from a re-analysis of the deposited data

Results flagged for a closer look

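Chrm2 in CA1-like nuclei of the long-term restricted mice had 1 sample far from the others: mouse 2 measured 4 CPM, and the other 3 mice measured 1.82 to 2.14. The gap took up 0.852 of the range of the group, above Dixon's critical value at the 95% level for 4 samples. This was 1 of 28 groups of 4 mice looked at in this way, and chance marks about 1 group in 20. The level is low in all mice of this class, and the cause was not tested.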

How the results depend on the processing

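The number of receptor and class pairs called for ageing was 0, and it was 2 with DESeq2 (Chrm2 in granule-like and parvalbumin-like nuclei), 1 without the filter on low counts, at resolution 2 and without Meg3 nuclei (Chrm3 in precursor-like nuclei each time), 1 with a term for libraries numbered 1 (Chrm2 in granule-like nuclei) and 3 with only libraries not numbered 1 (Chrm2 in granule-like and parvalbumin-like nuclei and Chrm3 in precursor-like nuclei). Leaving out 1 mouse gave 0 to 1: Chrm2 in parvalbumin-like nuclei without old ad libitum mouse 1, and Chrm3 in precursor-like nuclei without young mouse 1. The replicate block gave 1 (Chrm2 in granule-like nuclei); replicate numbers were not taken as pairs, because mice of 1 number in different groups deviated together (r over 0.1) in 80 of 84 comparisons for number 1, but in 12 of 76 for number 2, 12 of 40 for number 3 and 9 of 13 for number 4. For long-term restriction the count of 0 became 1 with only libraries not numbered 1 (Chrm2 in parvalbumin-like nuclei) and was 0 in all other alternatives; for acute restriction and for long-term against acute restriction it was 0 throughout. Chrm3 in CA1-like nuclei turned in sign: for acute restriction (0.01) to -0.06 with the replicate block and to between -0.20 and 0.21 with 1 mouse left out (-0.20 without acutely restricted mouse 2, -0.10 and -0.03 without old ad libitum mice 2 and 4), and for ageing (0.22) to -0.26 with UMIs per nucleus as a covariate and -0.01 without the length trend. Of 1510 alternative values for 95 levels, 1503 moved by no more than the SD over mice. Most of these alternatives left out 1 mouse, which by arithmetic cannot move a mean by more than that SD. The count is therefore no measure of stability. With marked doublets kept, 6 moved more: in precursor-like nuclei Chrm1 to 19.5, Chrm3 to 193, Chrm4 to 0.0688 and Chrm5 to 0.262 CPM, Chrm2 in mural-like nuclei to 14.2 and Chrm3 in Cajal-Retzius-like nuclei to 101. Resolution 2 moved Chrm5 in CA3-like nuclei to 0.0554. The share of all gene and class pairs called for ageing moved too: 1.26% in the report, 2.58% with DESeq2, 1.19% without the filter, 1.3% at resolution 2, 2.83% without Meg3 nuclei (non-neuronal classes only), 5.46% with the term for libraries numbered 1, 5.84% without those libraries, 4.09% with the replicate block, 0.823% without old ad libitum mouse 1 and 3.4% without young mouse 1; for long-term restriction it was 0.119% without libraries numbered 1. The cause of these changes was not tested. The filter on low counts left Chrm4 and Chrm5 out of the main fits, and the small groups leave wide intervals for the other receptors.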
